A study of Mus musculus with 57 samples.

Results

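GATA6 and SOX17 are transcription factors (TFs) of the primitive endoderm (PrE), and where GATA6 sits late in its own induction was set here against where SOX17 sits. The comparison rests on 4 CUT&RUN peak lists, the 2 GATA6 lists whose names carry 48 h and the 2 SOX17 lists of 24 h, out of 30 peak lists and 57 samples in the series. In CUT&RUN an antibody tethers a nuclease to a chromatin protein, and the DNA fragments that the nuclease frees are sequenced and piled up into peaks. All 4 lists came from KH2 mouse embryonic stem (ES) cells of the strain label C57BL/6 that carry the transgene TRE:GATA6-DSREd2, in which doxycycline (1 ug/mL) switches on GATA6 from a single inserted copy. The cells were kept in 2i medium, moved to serum medium with LIF and doxycycline for 12 h, and then held in serum medium without the drug. SOX17 at 24 h was thus mapped after the drug had been withdrawn, and so was GATA6 if the time in the list names holds. SOX17 came from the endogenous gene, whereas GATA6 could come from the transgene or from the endogenous gene, and the antibody peaks do not tell these apart. The lists hold no expression values, so the PrE identity of the cells could not be checked against marker transcripts.

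The time of the GATA6 lists needs a caution. The sample records and titles of these 2 lists give 4 h, while the list names and the names of all their peaks give 48 h. They are called the 48 h lists here, and the 2 GATA6 lists that the records assign to 48 h, whose names carry 8 h, were put in their place as an alternative. A time of 4 h would fall within the 12 h of doxycycline. Protein, time and antibody all differ between the lists compared, and their parts in any difference cannot be told apart.

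GATA6 acts first in the PrE program and binds short GATA words in DNA through zinc fingers. SOX17 is induced downstream of it, binds the minor groove at words close to CATTGT through a high-mobility-group box and bends the DNA. SOX2, the SOX factor of the pluripotent cells from which the PrE-like cells are made, reads nearly the same word.

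The GATA6 lists held 5933 and 9767 peaks and the SOX17 lists 27328 and 41979, of which 5930, 9765, 27326 and 41977 lay on the main chromosomes. The mean log2 peak number was higher by 2.15 for SOX17, with no overlap between the proteins, and a two-sided exact permutation test gave p = 0.333, the smallest that 2 lists against 2 allow. With the GATA6 lists recorded as 48 h the difference was 0.20. Depth, recovered as the background coverage of each library, was 0.928 and 1.22 fragments per base for GATA6 and 1.23 and 1.55 for SOX17. The deeper library of each protein had more peaks, and the part of depth in the peak numbers was not tested. Of the peaks of GATA6 replicate 1, 71.4% overlapped a peak of replicate 2, and 43.1% the other way round. The same shares for SOX17 were 72.0% and 46.7%. Such overlap cannot tell whether the 2 lists of a protein were independent, since their depth and peak number also differed. The study states that its duplicates were made independently, and the sources used here do not say whether they came from separate cultures, so the spread is that between these lists.

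A region was counted for a protein when both of its lists had a peak there. This left 4196 GATA6 regions and 19251 SOX17 regions. Of the GATA6 regions 3033 overlapped a SOX17 region (shared), 675 had no SOX17 peak in either list (GATA6-only), and 488 had a SOX17 peak that did not make a region. On the SOX17 side 3002 regions were shared, 14061 had no GATA6 peak in either list (SOX17-only), and 2188 had a GATA6 peak that did not make a region. A list records only what passed the caller's threshold, and over the flat background of the library the weakest peak of every list was built on 7 fragments, so "only" means that the other protein was not called there and not that it was absent.

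The DNA of 5 regions shows what the 3 classes look like, with 201 bases around the best summit on the plus strand of GRCm38. Capitals mark GATA words (the word AGATAA, the word AGATAG, the word TGATAA or the word TGATAG on either strand) and SOX words (CATTGT on either strand). The first, chr11:57984184-57984384, is the strongest shared region. The second, chr7:130134988-130135188, is the strongest GATA6-only region, and the third, chr9:108824963-108825163, the strongest SOX17-only region, centered on its SOX17 summit. The last 2, chr2:104098673-104098873 and chr17:67683453-67683653, were chosen after their values were seen because they hold both kinds of word.
Larp1 region, shared: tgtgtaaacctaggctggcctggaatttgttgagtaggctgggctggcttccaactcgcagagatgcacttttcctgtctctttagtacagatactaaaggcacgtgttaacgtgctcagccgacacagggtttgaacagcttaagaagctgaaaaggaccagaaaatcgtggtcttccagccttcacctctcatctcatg
Fgfr2 region, GATA6-only: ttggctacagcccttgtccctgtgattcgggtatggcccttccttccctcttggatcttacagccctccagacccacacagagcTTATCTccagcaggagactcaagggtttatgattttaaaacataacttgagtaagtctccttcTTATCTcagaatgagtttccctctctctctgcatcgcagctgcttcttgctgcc
Celsr3 region, SOX17-only: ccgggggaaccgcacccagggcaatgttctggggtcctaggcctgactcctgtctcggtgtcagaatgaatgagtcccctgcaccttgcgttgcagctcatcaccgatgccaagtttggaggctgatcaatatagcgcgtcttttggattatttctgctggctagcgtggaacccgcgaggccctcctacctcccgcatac
Cd59a region, shared: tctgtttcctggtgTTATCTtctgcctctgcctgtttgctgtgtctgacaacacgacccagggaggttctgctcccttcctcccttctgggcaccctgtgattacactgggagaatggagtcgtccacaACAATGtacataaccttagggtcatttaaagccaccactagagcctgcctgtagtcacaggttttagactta
Lama1 region, shared: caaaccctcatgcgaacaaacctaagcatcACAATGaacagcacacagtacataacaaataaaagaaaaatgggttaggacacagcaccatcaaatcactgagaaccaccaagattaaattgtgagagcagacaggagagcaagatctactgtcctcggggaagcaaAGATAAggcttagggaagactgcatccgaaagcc

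Neither the Larp1 region nor the Celsr3 region held a GATA or SOX word in this window, although they were the strongest of their classes. The Fgfr2 region held 2 GATA words, and the Cd59a and Lama1 regions each held 1 GATA and 1 SOX word.

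To ask how far SOX17 sits where late GATA6 sits, the overlap was read from both sides. Of the GATA6 regions 72.3% were shared with SOX17, while 15.6% of the SOX17 regions were shared with GATA6. The SOX17 regions covered 0.461% of the genome and the GATA6 regions 0.0703%. For single lists, 64.0% and 72.3% of the peaks of GATA6 replicate 1 overlapped a peak of SOX17 replicates 1 and 2, and 49.5% and 56.9% of those of replicate 2 did. In the other direction between 10.1% and 17.5% of SOX17 peaks overlapped a GATA6 list. The 2 shares depended on how many peaks were admitted. With each list held to its 5930 peaks of best q-value, 39.6% of GATA6 regions and 31.5% of SOX17 regions were shared. With the GATA6 lists recorded as 48 h, 34.2% and 37.7% were. With 1 list left out, the GATA6 share ran from 48.1% without GATA6 replicate 1 to 82.1% without SOX17 replicate 1, and the SOX17 share from 8.20% without SOX17 replicate 1 to 23.8% without GATA6 replicate 1.

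The stronger a region, the more often it was shared, on both sides. Fold here is the caller's ratio of the pileup at the summit to the local background. Antibody and depth differ between the proteins, so their folds at a region do not rank how much of each was bound. Regions were put into quintiles by the mean log2 fold of the 2 lists. Among GATA6 regions the shared part was 57.1% in the lowest quintile, 65.7%, 71.3% and 77.9% in the next 3, and 89.4% in the highest. Among SOX17 regions it was 7.48%, 8.10%, 11.3%, 18.5% and 32.5%. The highest quintile of GATA6 regions, from a fold of 9.69 upward, left 3.69% as GATA6-only. The highest quintile of SOX17 regions, from 10.4 upward, left 51.1% as SOX17-only. These 2 values do not have a like base, since 4196 GATA6 regions faced 19251 SOX17 regions, which limits the SOX17 share. With equal numbers of peaks, 39.6% of all GATA6 and 31.5% of all SOX17 regions were shared. The median GATA6 fold was 7.21 and 7.20 in the 2 lists for shared regions and 5.71 and 5.41 for GATA6-only regions, a log2 ratio of 0.37 ± 0.05 (SD, n = 2), which was 0.21 with the GATA6 lists recorded as 48 h. The median SOX17 fold was 8.51 and 10.2 for shared and 5.82 and 6.40 for SOX17-only regions, a log2 ratio of 0.61 ± 0.09 (SD, n = 2). This second ratio was 0.17 with equal numbers of peaks, 0.38 with the GATA6 lists recorded as 48 h, and with 1 list left out it ran from 0.48 without GATA6 replicate 1 to 0.97 without SOX17 replicate 1. Fragments behind a median summit were 21 and 25 in the 2 GATA6 lists for shared regions, 15 and 18 for GATA6-only regions, and 16 and 21 in the 2 SOX17 lists for SOX17-only regions.

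**Figure D1:**
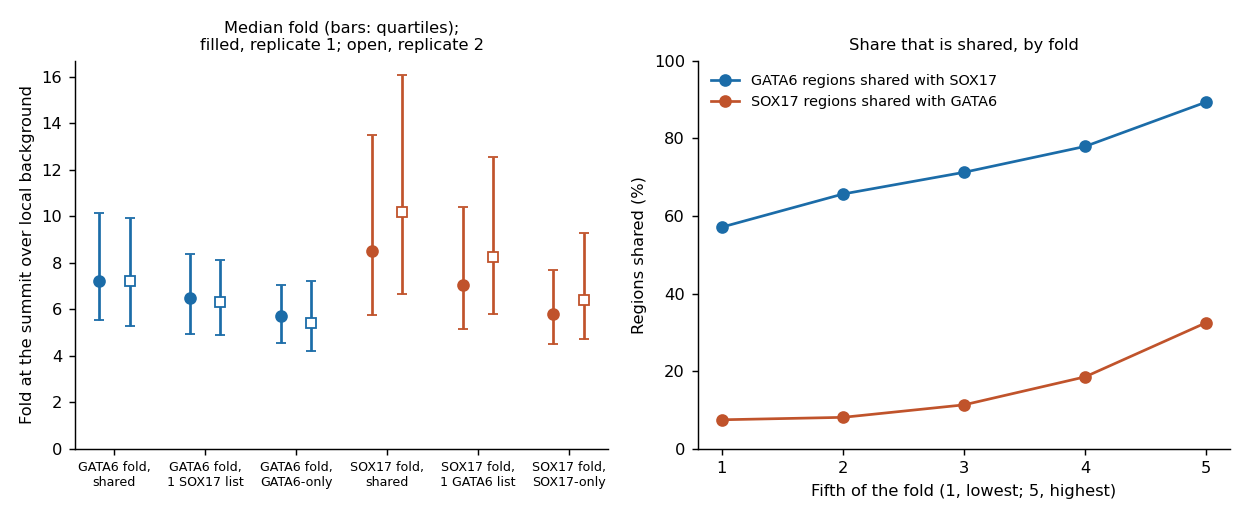
Left, median fold at the summit (points) with quartiles (bars) for each class of regions, filled for replicate 1 and open for replicate 2. Right, percent of GATA6 regions (blue) and SOX17 regions (orange) that were shared, by quintile of the fold, which rose from 57.1% to 89.4% and from 7.48% to 32.5%.

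Although strong regions were shared more often, the height of one protein said little about the height of the other. Across the 3033 shared regions Spearman's rho between a GATA6 and a SOX17 list lay between 0.204 and 0.209, against 0.681 between the GATA6 lists and 0.835 between the SOX17 lists. These points share their libraries and their local background, and the values are a description across regions. The region inside Tanc1 shows the contrast, with GATA6 folds of 9.03 and 10.2 and SOX17 folds of 178 and 183, the highest of either list. At the region 35353 bp upstream of Flt1, a receptor for vascular endothelial growth factor, both were high, with GATA6 folds of 38.2 and 45.8 and SOX17 folds of 66.1 and 57.1.

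Where both were called, the distance between their summits was measured. Shared regions overlap by rule and had median widths of 429 bp for GATA6 and 773 bp for SOX17, which limits this distance. The distance that overlap alone would give was not computed. The median distance between a GATA6 and a SOX17 summit was 65 to 74 bp over the 4 pairs of lists (mean 69.0 ± 4.69 bp, SD, n = 4 pairs that share lists). Between the replicates the median distance in the same regions was 39 bp for GATA6 and 49 bp for SOX17. Of the shared regions, 38.6% to 42.4% had summits within 50 bp across proteins, against 57.3% and 50.9% between replicates of GATA6 and of SOX17. The distance across proteins was thus larger than the distance between replicates in each of the 4 pairings, and 3.23% to 3.69% of the shared regions had summits over 500 bp apart. Between the best summits the median was 79 bp in the lowest quintile of GATA6 fold, 49 bp in quintile 4 and 53 bp in the highest. The median distance between replicates was also smaller in the highest quintile than in the lowest. It was 26.5 against 52 bp for GATA6 and 41.5 against 48 bp for SOX17.

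**Figure D2:**
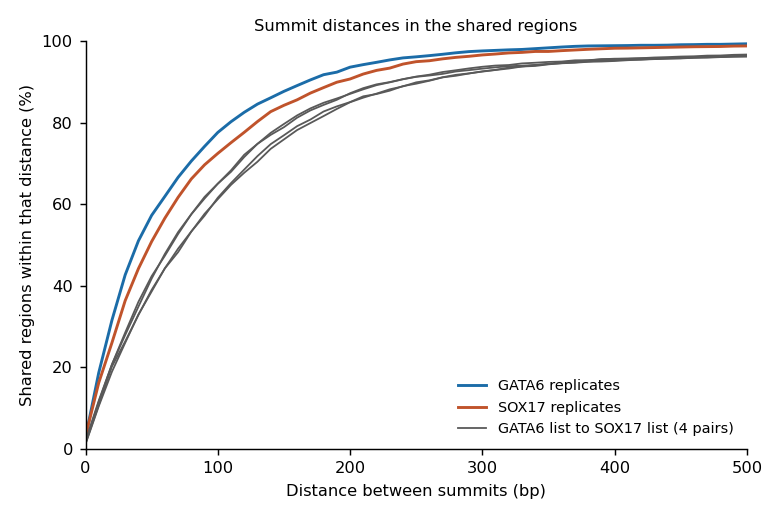
Percent of the 3033 shared regions (y axis) whose summits lay within a given distance (x axis, bp). The 4 gray lines are the GATA6-to-SOX17 list pairs, with medians of 65 to 74 bp, and run below the lines for the GATA6 replicates (blue, median 39 bp) and the SOX17 replicates (orange, 49 bp).

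The 3 classes differed in their distance to genes. Distances were taken from the summit to the nearest transcription start site (TSS) of a protein-coding transcript. The median was 23185 bp for shared, 35660 bp for GATA6-only and 14587 bp for SOX17-only regions. Within 1 kb of a TSS lay 7.62% of shared regions (231), 3.11% of GATA6-only regions (21) and 22.2% of SOX17-only regions (3115). Over 50 kb from any TSS lay 920 shared regions at up to 500 kb and 29 beyond, against 252 and 25 of the 675 GATA6-only regions. Summits fell in exons in 5.70% of shared, 4.30% of GATA6-only and 12.2% of SOX17-only regions, and in introns in 49.2%, 51.4% and 43.8%.

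Seen from SOX17, a region close to a TSS was less often shared. Of the 3738 SOX17 regions within 1 kb of a TSS 6.15% were shared, while it was 16.2% at 1 to 5 kb, 17.4% at 5 to 50 kb, 19.8% at 50 to 500 kb and 12.4% of the 233 regions beyond. This held at like strength. In the highest quintile of SOX17 fold 18.5% of regions within 1 kb and 34.7% of those beyond were shared, and in the lowest quintile 2.12% and 9.10% were. Seen from GATA6, regions within 1 kb were the most often shared, with 84.3% of 274, against 71.3% at 1 to 5 kb, 74.1% at 5 to 50 kb, 68.7% at 50 to 500 kb and 46.0% of the 63 regions beyond. In the lowest quintile of GATA6 fold, 85.3% of regions within 1 kb and 54.4% of those beyond were shared. The excess of SOX17-only over shared regions within 1 kb was 14.5 percentage points. With classes built from 1 list of each protein it was 10.1 for the lists numbered 1 and 5.46 for those numbered 2, so it kept its sign and its size depended on the lists. It was 9.42 without SOX17 replicate 1, 7.38 with the GATA6 lists recorded as 48 h and 4.67 when a peak in 1 list was enough for a region.

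GATA words set the shared regions apart from the SOX17-only regions. Within 100 bp of the SOX17 summit, 71.5% of shared regions held a GATA word, with 69.8% and 73.0% at the summits of the 2 lists. Among SOX17-only regions the share was 35.0%, with 33.6% and 35.3% in the lists, which lay near the 37.8% of all consecutive 201-bp windows of the genome. The share was 15.7% of the windows at protein-coding TSSs. Around the GATA6 summit 78.7% of shared and 72.4% of GATA6-only regions held a GATA word, with a mean of 1.49 words in both. This order held only in the lowest quintile of GATA6 fold (72.7% and 59.0%). In every higher quintile the GATA6-only share was the larger, with 82.7% of shared and 93.5% of GATA6-only regions in the highest. The contrast with SOX17-only regions was there at each strength. In the lowest quintile of SOX17 fold 78.1% of shared and 34.4% of SOX17-only regions held a GATA word, and in the highest 65.3% and 33.0% did. Beyond 1 kb of a TSS the shares at SOX17 summits were 73.5% for shared and 41.2% for SOX17-only regions.

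The more GATA words a SOX17 region held, the more often it was shared with GATA6. The shared part was 7.79% of 10995 regions with none, 18.3% of 5367 with 1, 35.3% of 2168 with 2 and 55.2% of 721 with 3 or more. The SOX17 fold hardly moved along that series, with medians of 6.01, 6.27, 6.27 and 6.27 in replicate 1 and 6.69, 7.33, 7.45 and 7.13 in replicate 2. The number of SOX words did not order the SOX17 regions in this way, with 15.3%, 16.7%, 15.5% and 16.8% shared at 0, 1, 2 and 3 or more words.

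SOX words in turn set the shared regions apart from the GATA6-only regions. Around the GATA6 summit 27.5% of shared and 12.9% of GATA6-only regions held one, with 28.3% and 27.7% in the 2 lists for shared and 13.3% and 12.6% for GATA6-only regions. The genome share was 12.7% and the TSS share 6.31%. SOX17-only regions held a SOX word in 25.2% and shared regions in 26.7% of cases at their SOX17 summits. The share of GATA6 regions that was shared with SOX17 was 69.2% with no SOX word, 80.9% with 1, 86.4% with 2, and all of the 17 regions with 3 or more. By the number of GATA words it was 70.6%, 75.3%, 75.8% and 64.6%. Both kinds of word were present in 22.6% of shared regions, 11.4% of GATA6-only regions, and at SOX17 summits in 19.9% of shared and 10.1% of SOX17-only regions. Neither word was found in 50.0% of SOX17-only regions and in 21.7% of shared regions at their SOX17 summits. The excess of shared over GATA6-only regions with a SOX word was 14.6 percentage points, 8.32 within 50 bp of the summit and 8.74 with the GATA6 lists recorded as 48 h.

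**Figure D3:**
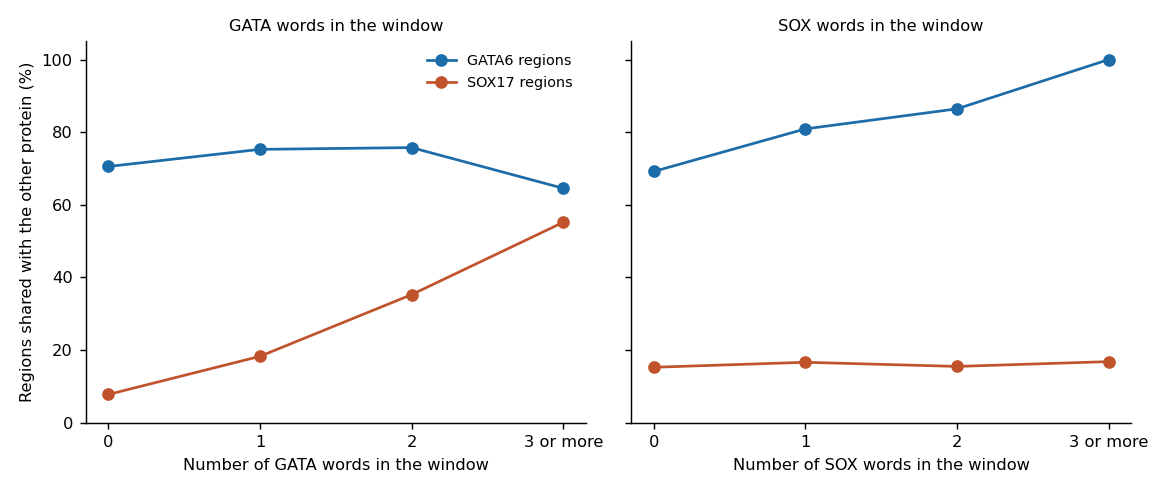
Percent of GATA6 regions (blue) and SOX17 regions (orange) shared with the other protein, by the number of GATA words (left) or SOX words (right) in the 201-bp window. SOX17 regions run from 7.79% to 55.2% with GATA words and stay between 15.3% and 16.8% with SOX words.

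The place of the words was measured in 25-bp bins around the summits. GATA words were most frequent at 50 to 75 bp on either side of the GATA6 summit, with 22.4 matches per 100 shared regions in the bin at 75 bp to the left and 21.9 in the bin at 75 bp to the right, and the bin at the summit held 11.1. The same dip was present at SOX17 summits, where the bin at the summit held 12.6 and the bin at 50 bp to the left 18.002 matches per 100 shared regions. SOX17-only regions held 4.86 at the summit and 6.36 at 50 bp to the left. A GATA word lay within 25 bp of the summit in 23.5% of shared regions by the GATA6 summit and in 25.1% by the SOX17 summit, against 9.71% of SOX17-only regions. A SOX word lay that near in 9.07% of shared regions by the GATA6 summit and in 5.64% by the SOX17 summit, against 6.09% of SOX17-only and 4.59% of GATA6-only regions. Within 25 bp, SOX words of shared regions were thus found at GATA6 summits more often than at SOX17 summits. In the bin at 75 bp to the left the order turned, with 3.26 matches per 100 shared regions at GATA6 and 5.37 at SOX17 summits. Within 100 bp, 27.5% of shared regions held a SOX word at GATA6 and 26.7% at SOX17 summits. GATA words are the more common kind of word, and in a 50-bp stretch from 400 to 450 bp away from the SOX17 summit 9.73% of shared regions held a GATA and 2.70% a SOX word.

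**Figure D4:**
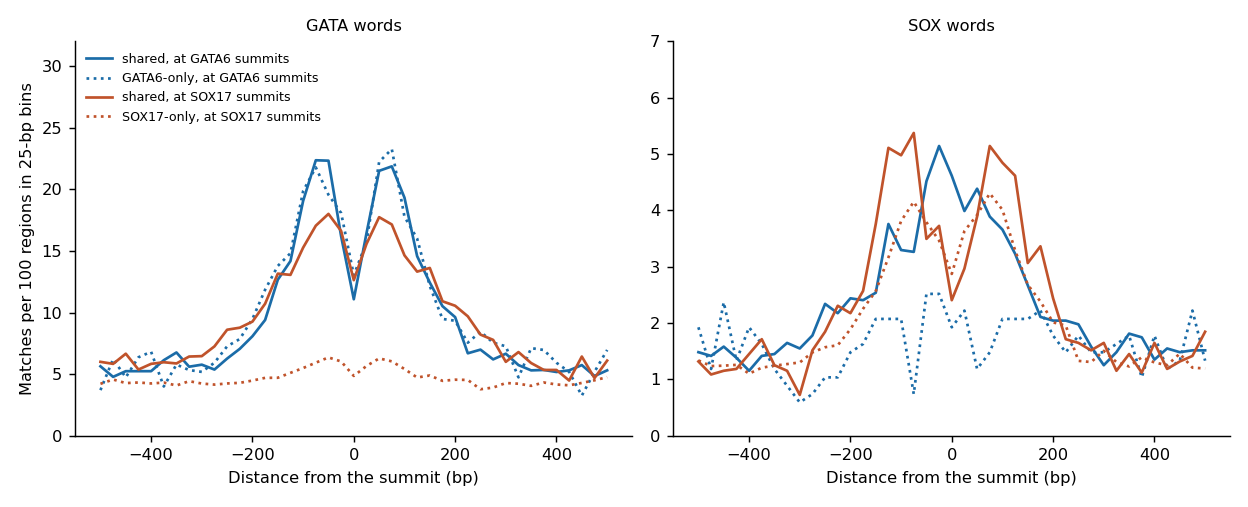
Matches per 100 regions in 25-bp bins (y axis) against the distance from the summit (x axis, bp) for GATA words (left) and SOX words (right). Solid lines are shared regions and dotted lines regions of 1 protein, in blue at GATA6 and in orange at SOX17 summits. GATA words of SOX17-only regions lie between 3.78 per 100, at 250 bp to the right, and 6.36, at 50 bp to the left of the summit.

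Longer words were rare in all classes. The 2 SOX-octamer words, ATTGTNATG with 1 base between the half-sites and the compressed ATTGTATG, which pairs of SOX and OCT4 proteins can bind, were found in 1.03% and 0.966% of shared regions at SOX17 summits and in 1.21% and 0.989% of SOX17-only regions. Genome windows held them in 0.798% and 0.755% of cases. Base composition moved with the classes, with a median GC content of 46.8% in shared, 45.3% in GATA6-only and 50.2% in SOX17-only windows, and 10 or more CpGs in 3.49%, 0.741% and 17.7% of them. The part of composition in the word shares was not tested.

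Other lists of the series show which proteins had been called at these regions at other times. GATA4, a second GATA factor of the PrE, was mapped at 24 h, as SOX17 was. It had a peak in 65.0% and 54.0% of shared regions (2 lists), in 15.4% and 9.04% of GATA6-only regions and in 13.1% and 6.02% of SOX17-only regions. In the highest quintile of SOX17 fold the GATA4 shares were 74.9% and 63.8% for shared and 22.3% and 12.0% for SOX17-only regions, and in the lowest 51.7% and 41.3% against 9.25% and 3.82%.

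GATA6 at 2 h had been called at most SOX17 regions, with or without a late GATA6 peak. At 2 h it had a peak in 68.3% and 57.4% of SOX17-only regions, beside 78.9% and 73.0% of shared and 32.6% and 26.4% of GATA6-only regions. Counted over SOX17 regions, the shares were 79.3% and 74.1% for shared ones. They were 76.5% and 69.6% where a GATA6 peak did not make a region. The SOX17-only shares were thus the lowest among the SOX17 regions. In the lists named 8 h, which the records assign to 48 h, the shares were 31.7% and 35.5% for SOX17-only, 76.4% and 78.7% for shared and 35.6% and 37.5% for GATA6-only regions. The SOX17-only shares were thus lower in the lists named 8 h than in those of 2 h in both replicates, and the shared ones moved little. The lists were also shorter, with 28674 and 30232 peaks against 79356 and 62681, and the part of that was not tested. With the summit base instead of the whole region, the 2 h lists held 61.2% and 49.2% of SOX17-only summits, and the lists named 8 h held 25.7% and 29.4%.

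SOX2 before induction was called more often in SOX17-only than in shared regions, except near TSSs. At 0 h it had a peak in 44.9% and 41.1% of them, in 22.6% and 20.7% of shared regions and in 0.593% and 0.741% of GATA6-only regions. Beyond 1 kb of a TSS the shares were 39.5% and 38.0%, 19.0% and 17.5%, and 0.459% and 0.612%. Within 1 kb the order of the first 2 turned, with 63.8% and 52.0% of SOX17-only and 66.2% and 60.6% of the 231 shared regions. At 8 h, over all regions, the order was also turned, with SOX2 peaks in 53.7% and 52.8% of shared and 27.3% and 24.5% of all SOX17-only regions. NANOG at 0 h had a peak in 10.5% and 14.9% of shared, 0.593% and 0.444% of GATA6-only and 14.7% and 20.9% of SOX17-only regions, and within 1 kb of a TSS in 31.2% and 40.3% of shared and 8.35% and 16.4% of SOX17-only regions. Of the 26 lists outside the comparison a median of 12 had a peak in a shared region, 1 in a GATA6-only region and 7 in a SOX17-only region. No other list had a peak in 48.7% of GATA6-only regions, against 6.89% of shared and 15.9% of SOX17-only regions, and none of the GATA6-only regions had peaks in 20 or more. Region widths differed as well (medians of 429, 350 and 519 bp), and wider regions meet more peaks.

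Genes were assigned as the nearest protein-coding TSS within 50 kb of the summit. Of 21827 genes, 1614 (7.39%) had a shared region, 384 (1.76%) a GATA6-only region and 6179 (28.3%) a SOX17-only region, which are the backgrounds for the counts below. Genes with a shared region also had a SOX17-only region in 61.7% of cases, and genes with a GATA6-only region had a shared region in 21.1%. Gata6, Tead1 and Fam3c had 6 shared regions each, and Foxa2 and Pdgfra were among those with 5. No gene had more than 2 GATA6-only regions. Arid5b had 21 SOX17-only regions, Akap12 19, Etv5 16 and Smad7 15.

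Genes of the PrE often carried shared regions. Of 12 PrE TF genes 9 had one (75%, against 7.39% of all genes), 11 a SOX17-only region (91.7%, against 28.3%) and 0 a GATA6-only region. Foxq1, a forkhead gene, had its shared region 24591 bp upstream (GATA6 folds 12.3 and 17.2, SOX17 folds 26.95 and 33.8). The region in the Gata4 intron at chr14:63231003-63232071 had GATA6 folds of 19.5 and 20.5 and SOX17 folds of 15.3 and 23.0. At Sall4, which ES cells and the PrE both use, the SOX17 folds were 36.2 and 39.7 and the GATA6 folds 10.4 and 5.78. A SOX17-only region 24124 bp upstream of it had folds of 18.9 and 24.6. Hnf4a and Hhex had 1 SOX17-only region each and no other, and Cited1 had none. Sox17 itself had 3 shared regions and 1 SOX17-only region, and the strongest, 21741 bp downstream of the TSS, held 2 GATA words and 1 SOX word.

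Of the 17 signalling genes listed, 5 had a shared region (29.4%, against 7.39% of all genes), 13 a SOX17-only region (76.5%, against 28.3%) and 0 a GATA6-only region. Pdgfra, the platelet-derived growth factor receptor that marks the PrE, had 5 shared regions, the strongest 14274 bp upstream of its TSS with GATA6 folds of 27.6 and 14.2 and SOX17 folds of 22.4 and 28.9. Its TSS itself carried a SOX17-only region with folds of 11.9 and 14.9. Fgfr3 (GATA6 folds 20.8 and 24.6, SOX17 folds 5.32 and 6.06) and Dkk1, a secreted WNT inhibitor (15.7 and 12.2, and 8.22 and 9.08), had shared regions and no SOX17-only region. Among genes that respond to FGF signalling through ERK, grouped here after their values were seen, Etv5 had 16 SOX17-only regions, Spry4 8, Dusp4 4, and Etv4 and Dusp6 3 each, and none of these had a shared one. Over all genes 7.39% had a shared and 28.3% a SOX17-only region, so having no shared region is the usual case. Spry2 had 3 shared and 3 SOX17-only regions. The strongest SOX17-only regions at Etv4, Etv5 and Spry4 had peaks in 18, 21 and 20 of the 26 other lists. The first of these, at the Etv4 TSS, had SOX17 folds of 19.3 and 39.6. Fgfr1, Fgfr2, Fgf3, Bmp4 and Lefty1 had 1 SOX17-only region each and no shared region, while Cer1 and Fst had no region.

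Genes for the basement membrane that the PrE lays down often carried shared regions too, with 9 of 12 (75%, against 7.39%), 10 with a SOX17-only (83.3%, against 28.3%) and 2 with a GATA6-only region. Lamc1, a laminin chain, had GATA6 folds of 20.3 and 19.8 and SOX17 folds of 28.8 and 29.2 at a region 44131 bp upstream. Lama1, another laminin chain, had 19.4 and 16.5 for GATA6 and 22.7 and 30.8 for SOX17, with summits 11 bp apart. The head-to-head collagen IV genes were both marked. The region assigned to Col4a2, in an intron of Col4a1, had SOX17 folds of 68.5 and 68.0 against GATA6 folds of 9.86 and 7.34. That assigned to Col4a1, in an intron of Col4a2, had 28.4 and 30.7 against 15.2 and 8.83, with best summits 1 bp apart. Plod2, a lysyl hydroxylase, had shared regions and no other, Hspg2 and P4ha2 SOX17-only regions and no other, and Nid1 had none. At Lama1, Lamc1, Nid2, Hspg2 and P4ha2 the strongest SOX17-only region lay 129 to 268 bp upstream of the TSS. At Col4a1, Serpinh1, Lamb1, Sparc and Col4a2 it lay farther away, at 1183 to 44672 bp from the TSS.

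The visceral endoderm takes up nutrients through endocytic receptors. Of 6 genes for them, 5 had a shared region (83.3%, against 7.39% of all genes), 5 a SOX17-only region (83.3%, against 28.3%) and 0 a GATA6-only region. Cubn, the cubilin gene, was the strongest, with GATA6 folds of 17.4 and 15.4 and SOX17 folds of 33.2 and 39.2 at a region 4366 bp upstream. Tfrc, the transferrin receptor gene, had a shared region 601 bp from its TSS (GATA6 folds 14.5 and 17.6, SOX17 folds 8.51 and 10.3) and no SOX17-only region. Serum protein genes of the later visceral endoderm stood closer to the background. Of 10, Ttr and Apoe had shared regions (20%, against 7.39%) and also SOX17-only regions (20%, against 28.3%). Apoa4 had a GATA6-only region with folds of 5.56 and 4.21, and Afp, Apoa1, Apob, Apom, Rbp4, Trf and Alb had no region.

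Of 20 pluripotency genes, 14 had a SOX17-only region (70.0%, against 28.3% of all genes), 7 a shared region (35.0%, against 7.39%) and 2 a GATA6-only region (1.76% of all genes). Both of the first 2 shares were above their backgrounds. The part of the longer SOX17 lists in the higher SOX17-only count was not tested. The region 4834 bp upstream of Nanog was SOX17-only with folds of 20.7 and 19.6, and 22 of the 26 other lists had a peak there. Pou5f1, which encodes OCT4, had a shared region 3264 bp upstream with SOX17 folds of 48.3 and 54.2 and GATA6 folds of 5.80 and 5.07. Esrrb had a shared region with GATA6 folds of 12.5 and 8.26 and SOX17 folds of 3.95 and 4.56. Prdm14 (SOX17-only folds 17.9 and 16.9) and Klf5 (shared, GATA6 12.1 and 16.6, SOX17 13.9 and 16.0) were the others among the strongest. Klf2, Zfp42, Tdgf1, Dppa3 and Utf1 had SOX17-only regions and no other, Tfcp2l1 had only a GATA6-only region (6.83 and 7.52), and Sox2, Nr0b1, Nr5a2, Fgf4 and Gdf3 had no region assigned. Of 10 trophectoderm genes, Elf5 had shared regions (10%, against 7.39%), and Cdx2, Tfap2a, Tead4 and Eomes had SOX17-only regions (40%, against 28.3%). Of 12 genes of other lineages 0 had a shared region (against 7.39% of all genes). A SOX17-only region was assigned to 3 (25%, against 28.3%), Neurog1, Olig2 and Ebf1.

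**Figure D5:**
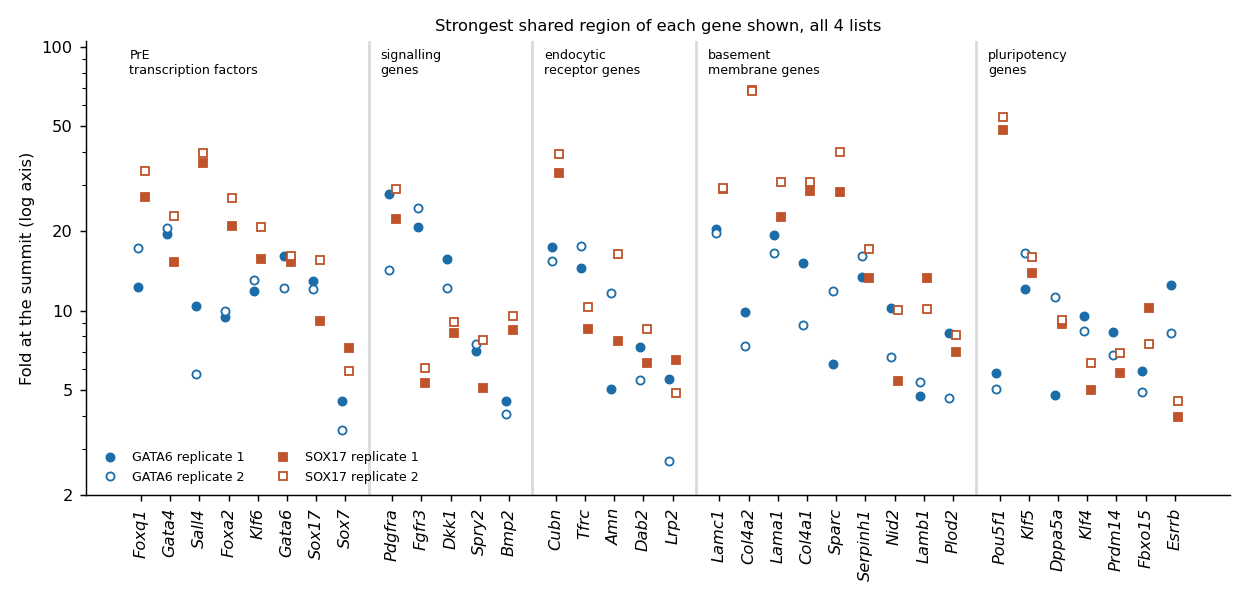
Fold at the summit (y axis, log scale) of the strongest shared region of each gene shown, in the 2 GATA6 lists (blue) and the 2 SOX17 lists (orange), filled for replicate 1 and open for replicate 2. At Col4a2 the SOX17 folds were 68.5 and 68.0 and the GATA6 folds 9.86 and 7.34. Folds of the 2 proteins come from different antibodies and depths and do not rank their binding.

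The strongest regions of each class lay near genes outside these lists, apart from Fgfr2. Among shared regions the first, 24780 bp upstream of Larp1, had GATA6 folds of 43.4 and 67.0 and SOX17 folds of 64.6 and 35.7. The region inside Cd59a, which encodes a complement inhibitor, had the highest GATA6 fold of replicate 1 (52.4, and 63.1 in replicate 2) with SOX17 folds of 44.3 and 40.8. The region 63787 bp from Ugcg, the glucosylceramide synthase gene, had 41.5 and 42.4 for GATA6 and 52.1 and 51.9 for SOX17. Together with the regions of Flt1 and Tanc1 these are the 5 strongest shared regions, and 15 to 23 of the 26 other lists had a peak in each.

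The 5 strongest GATA6-only regions held a GATA word each. So did 93.5% of the 31 GATA6-only and 82.7% of the shared regions in the highest quintile of GATA6 fold. The first lay 131103 bp from the nearest TSS, that of Fgfr2, with folds of 23.8 and 24.7 on 73 and 101 fragments. The next were nearest to Gm525 (18.7 and 21.7), Nr2f2 (16.7 and 18.1), Utp6 (14.8 and 18.8) and Frrs1 (18.7 and 13.1), at 13165 to 182449 bp from the TSS. At most 1 other list had a peak in the first 4, and 9 had one in the region near Frrs1.

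The 5 strongest SOX17-only regions held no GATA word, while 33.0% of SOX17-only regions in the highest quintile of SOX17 fold held one. The first, 1257 bp upstream of the TSS of Celsr3, a cadherin of planar polarity, had folds of 106 and 97.4 on 445 and 489 fragments. The region assigned to Gpx2, in exons of Fntb and Rab15, had folds of 75.2 and 55.8 and no peak in any of the 26 other lists. Tspan14 (47.2 and 79.7), Pou2f1 (51.1 and 66.7) and Slc44a5 (47.2 and 65.2) followed, and the region inside Slc44a5 held 3 SOX words.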

How the data were processed

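CUT&RUN peaks of 30 lists in 57 samples came as deposited by the authors, who aligned reads to the mouse genome (mm10, GRCm38) with Bowtie2, removed reads on blacklisted regions, kept duplicates, and called narrow peaks with MACS on each library against a rabbit anti-rabbit control. In the deposited lists the fold is the authors' ratio of summit pileup to local background, beside the deposited −log10 p-values and q-values, and the deposited score was not used. Keeping duplicates may make strong summits less exact, and its effect was not tested.

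Regions were intervals with a peak in both lists of a protein (overlap of at least 1 bp), and classes were made by overlap of regions. Fragments at summits and background were recovered from fold and −log10 p (misfit at most 0.002), and floors cover counting error only. TSSs were those of GENCODE M21 transcripts. Words were searched on both strands within 100 bp of the summit. The 5 strongest regions of each class are named, with up to 4 genes per list and the members with 1 class only. Members, lists and tests were chosen with earlier results of these data known. Python 3.11.15, NumPy 2.4.6 and SciPy 1.17.1 were used, and the scripts were tested on simulated data. Alternatives changed the lists admitted, the q-value, the number of peaks, the overlap, the TSS set and the word window. The results for some named genes and 1 word are not reported here.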

Additional observations from a re-analysis of the deposited data

How the results depend on the processing

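Of 112 alternatives over 10 results, 32 moved a value by less than the spread between replicate pairs and 80 moved it by that spread or more. That spread comes from 2 pairs and is itself imprecise. A change of sign was found in 0 alternatives, and the 2 shares and the summit distance cannot change sign. A peak list holds only called peaks, so depth limits what can be called absent.

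The log2 peak number difference (2.15) was 0.20 with the GATA6 lists recorded as 48 h. With 1 list left out, it ran from 1.79 to 2.51, the GATA6 share ran from 48.1% to 82.1%, the SOX17 share from 8.20% to 23.8%, the summit distance (64 bp between best summits) from 64 to 72 bp, the log2 ratio of GATA6 fold from 0.31 to 0.40 and of SOX17 fold from 0.48 to 0.97. The TSS excess of SOX17-only regions ran from 9.42 to 12.7 and that of GATA6-only regions from -5.68 to -3.76 points, the GATA word excess from 29.4 to 38.3 and the SOX word excess from 12.1 to 15.1 points.

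In the same order of results, a peak in 1 list sufficing gave 58.0%, 13.2%, 71 bp, and for TSSs 4.67 and -6.11, and for words 31.0 and 13.3 points. A −log10 q of at least 5 gave a SOX17 share of 15.0%, 58 bp, ratios of 0.27 and 0.48, -2.75 and, for SOX words, 14.7. Equal peak numbers gave 39.6%, 31.5%, 58 bp, 0.27, 0.17, 11.1, -2.68, 34.6 and 14.9. Summits at most 200 bp apart gave 63.1%, 13.7%, 52 bp, a GATA6 ratio of 0.39 and words of 39.4 and 16.6. The GATA6 lists recorded as 48 h gave 34.2%, 37.7%, 76 bp, 0.21, 0.38, 7.38, -10.2, 26.98 and 8.74. Word windows of 50 and 200 bp on each side gave 26.0 and 37.6 for GATA and 8.32 and 16.3 for SOX words. The cause of these moves was not tested.

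With lists paired by number (replicate block, mean over 2 pairs) the values were a log2 peak number difference of 2.15, shares of 60.5% and 13.4%, 72 bp, ratios of 0.37 and 0.73, TSS differences of 7.80 and -4.73, and word differences of 32.3 and 13.2. The lists share only a number, and nothing in the labels pairs them.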
